A study of Mus musculus with 12 samples.

Results

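The genes described here are 38 type I interferon-stimulated genes chosen by gene symbol as well-known targets of this pathway. All 38 were found among the 49585 genes of the count table, and all 38 had enough reads to be tested, out of 18556 genes that did. The RNA came from whole lungs of C57BL/6J mice that carried an MO4 melanoma under the skin, in 4 groups of 3 libraries. The young anti-PD-1 group was 2 months old and received antibody to PD-1, the checkpoint receptor that restrains activated T cells. The 3 aged groups were 22 months old and received rat control antibody of matched isotype (aged control), anti-PD-1 (aged anti-PD-1), or anti-PD-1 with antibody to the receptor of the T cell cytokine IL-21 (combination). Antibody went into the peritoneal cavity, and the labels place the anti-PD-1 and control doses on days 3, 7 and 11 after tumour inoculation. The days for anti-IL-21R are not given in the sources used here. All 4 groups bore the tumour, so no group shows the lung of a tumour-free or untreated mouse, and young mice with control antibody were not analysed here.

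Type I interferons are secreted by infected or stimulated cells and bind a receptor made of the chains IFNAR1 and IFNAR2. The receptor activates the kinases JAK1 and TYK2, which phosphorylate transcription factors of the STAT family. STAT2 and IRF9 are parts of the complex (ISGF3) that enters the nucleus and binds a DNA element, the interferon-stimulated response element, near the start of its target genes. The targets include the sensors and transcription factors of the pathway itself, the ubiquitin-like ISG15 system, and proteins that block viral RNA, translation or budding. Interferon gamma works through another receptor and induces some of the same genes. In the lung, epithelium, endothelium and resident and recruited leukocytes can all run this program.

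The element can be read in the promoters of the genes. RefSeq promoter windows (250 bases before to 50 after the start site, GRCm38.p6) were matched for 28 of the 38 genes, and its core, GAAANNGAAA or on the other strand TTTCNNTTTC, with overlapping copies allowed, was found in 13 of the 28 (46.4%). Among all 27025 genes with a window, 1079 (3.99%) held it. Mx1, Mx2, Oas2, Dhx58, Usp18, Ifi27l2a, Rtp4, Zbp1, Parp9 and Parp14 had no matched window. The promoters below are those of the members on which the results turn and of textbook members to set beside them. Each runs 5′ to 3′ on the strand of the gene from 250 bases before the start site to 30 after it, with the core in capitals. Ddx58 lies at chr4:40239796-40240075 (minus strand), Herc6 at chr6:57580742-57581021 (plus), Isg15 at chr4:156200789-156201068 (minus), Ifit1 at chr19:34640639-34640918 (plus), Ifit3b at chr19:34607707-34607986 (plus) and Rsad2 at chr12:26456423-26456702 (minus).
Ddx58: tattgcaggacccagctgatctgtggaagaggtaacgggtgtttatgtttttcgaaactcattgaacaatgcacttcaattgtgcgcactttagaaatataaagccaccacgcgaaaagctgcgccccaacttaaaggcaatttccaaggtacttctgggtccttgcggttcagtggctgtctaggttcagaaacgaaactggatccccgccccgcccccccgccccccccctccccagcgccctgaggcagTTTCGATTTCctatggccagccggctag
Herc6: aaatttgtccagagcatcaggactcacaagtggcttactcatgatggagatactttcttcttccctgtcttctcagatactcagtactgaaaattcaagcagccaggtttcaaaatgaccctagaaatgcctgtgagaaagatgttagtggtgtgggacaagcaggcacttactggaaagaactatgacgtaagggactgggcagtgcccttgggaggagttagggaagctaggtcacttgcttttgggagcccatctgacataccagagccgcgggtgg
Isg15: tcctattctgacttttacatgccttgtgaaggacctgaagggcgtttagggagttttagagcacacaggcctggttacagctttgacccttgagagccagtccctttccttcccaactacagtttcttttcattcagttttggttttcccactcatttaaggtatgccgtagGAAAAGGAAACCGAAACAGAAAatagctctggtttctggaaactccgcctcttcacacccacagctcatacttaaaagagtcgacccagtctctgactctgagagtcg
Ifit1: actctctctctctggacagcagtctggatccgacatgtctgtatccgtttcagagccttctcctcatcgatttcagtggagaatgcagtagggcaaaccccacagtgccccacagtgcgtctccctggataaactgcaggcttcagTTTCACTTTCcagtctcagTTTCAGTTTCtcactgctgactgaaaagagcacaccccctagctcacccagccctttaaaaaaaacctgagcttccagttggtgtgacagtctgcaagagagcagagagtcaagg
Ifit3b: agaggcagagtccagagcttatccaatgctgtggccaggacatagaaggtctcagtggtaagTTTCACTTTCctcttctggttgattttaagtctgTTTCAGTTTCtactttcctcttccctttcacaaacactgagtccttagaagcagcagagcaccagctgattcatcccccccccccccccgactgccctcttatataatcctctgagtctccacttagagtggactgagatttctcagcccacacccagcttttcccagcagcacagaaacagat
Rsad2: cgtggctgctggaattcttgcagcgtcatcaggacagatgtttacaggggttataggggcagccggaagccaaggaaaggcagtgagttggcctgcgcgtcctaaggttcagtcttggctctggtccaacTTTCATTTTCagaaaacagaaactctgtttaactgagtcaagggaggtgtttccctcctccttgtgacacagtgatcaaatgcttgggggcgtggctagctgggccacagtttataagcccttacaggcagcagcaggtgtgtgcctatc
Isg15 held 3 overlapping copies of the core, and Ifit1 and Ifit3b held 2 each, all upstream of the start site. Rsad2 held 1 copy upstream, while the copy of Ddx58 lay at the start site itself, beginning 2 bases into the transcript. The window of Herc6 held no copy, and neither did any of the windows of Isg20 and Lgals3bp.

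Counted reads per library ran from 16021877 to 22058620, and a member had between 28 and 3629 reads in a library. Levels are CPM, read counts scaled to library size with TMM factors, means are given ± SD with n = 3, and fold changes are log2 values ± SE from 1 edgeR quasi-likelihood fit of the 12 libraries. A gene is called where its p, adjusted by Benjamini-Hochberg over all 18556 genes, was under 0.05. Whether the libraries of a group are from separate animals is not stated in the labels, and if they are not, the spread behind the p-values is technical. An exact permutation test of 3 libraries against 3 could not go below 0.1. Libraries of a group differed by more than counting noise, with a chi-square per degree of freedom of 8.97 to 44.4. The lung markers Sftpc, Scgb1a1 and Ager were among the abundant transcripts of every library, with Ager, a marker of flat alveolar epithelium, at 24314 to 88021 reads. Melanoma markers were scarce: the 6 listed genes summed to 4.05 to 9.71 CPM, and Tyr, which makes the first enzyme of pigment synthesis, had 4 reads over all 12 libraries. Mitochondrial reads took 6.76% ± 0.628 of the young anti-PD-1 libraries, 8.56% ± 1.62 of the aged control, 9.35% ± 2.18 of the aged anti-PD-1 and 13.4% ± 1.72 of the combination libraries. In a whole organ, fewer cells of a type and less RNA per cell cannot be told apart.

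The members were expressed in every library, over a wide range of levels. Per kilobase of exon, Ifi27l2a, a small membrane protein of mitochondria, had the highest mean level, at 307 CPM per kb. Bst2 (tetherin, which holds budding virus at the cell surface) followed at 124, then Ifit3 at 44.6, Lgals3bp at 42.0, Isg15 at 34.8 and Isg20 at 34.3 CPM per kb. At the other end stood Oas1g at 1.25 and Herc6 at 0.918 CPM per kb. The ratio of the highest to the lowest of the 12 libraries was 1.30 for Ifi35, the smallest, and 3.98 for Oas3, the largest. Of the 38 group means, the highest fell in the aged anti-PD-1 group for 20 members, in the combination group for 11, in the young group for 5 and in the aged control group for 2.

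**Figure D1:**
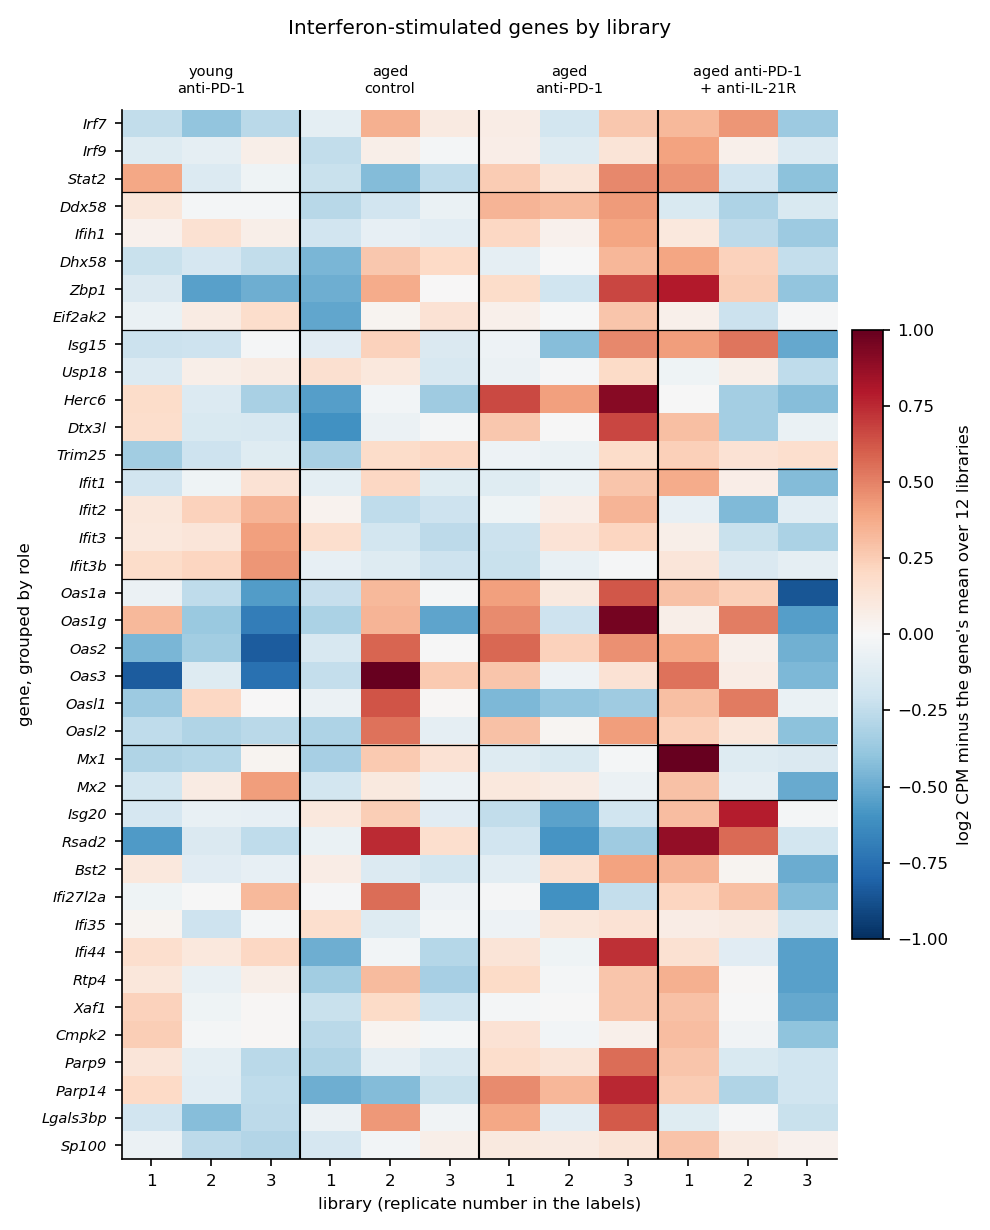
Each row is a gene and each column a library, and the colour is log2 CPM minus the gene's mean over the 12 libraries, on a scale that ends at 1 in either direction. Columns are ordered by group, and lines separate the roles. Red runs down library 3 of the aged anti-PD-1 group and library 1 of the combination group, and blue down library 3 of the combination group, across most roles. Ddx58, Herc6, Parp14, Stat2 and Oas2 are among the genes that are red in all 3 aged anti-PD-1 libraries.

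Transcripts of the interferons themselves were at the limit of detection. Ifnb1 had no read in any of the 12 libraries, and a count of 0 allows up to 3 reads a library, 0.136 CPM in the deepest library and 0.187 CPM in the shallowest, for counting error only. Of 17 type I ligand genes listed, 10 had no read in any library, and the 17 together had 28 reads over the 12 libraries, with no more than 4 in 1 library. Many of these genes are near-identical copies, whose reads an aligner may not place, so their counts are uncertain. Both receptor chains were present. Ifnar1 had mean levels of 47.5 ± 1.85, 46.8 ± 6.44, 46.3 ± 1.79 and 45.6 ± 6.15 CPM in the young anti-PD-1, aged control, aged anti-PD-1 and combination groups. Ifnar2 had 36.8 ± 2.42, 38.9 ± 1.24, 37.7 ± 2.17 and 37.1 ± 2.88 CPM in the same order. Neither chain was called in any of the 4 comparisons, with fold changes between -0.07 and 0.03.

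The first comparison asks what anti-PD-1 changed in aged lungs. Against aged control, 3 members rose: Ddx58 1.45-fold, Parp14 1.88-fold and Herc6 1.98-fold. No member was called lower, beside 5.58% of all genes. An unadjusted p under 0.05 with a lower value was found for 3 members, beside 15.2% of all genes, and DESeq2 called 2 lower. DESeq2 called 16.2% of all genes in this comparison, with 1459 of its 2999 calls higher. The 3 higher calls are 7.89% of the members, beside 5.34% of all genes called higher, and the 3 calls in either direction stand beside 10.9% of all genes called. Of 9 textbook targets (Irf7, Irf9, Stat2, Isg15, Ifit1, Mx1, Oas1a, Rsad2 and Bst2) none was called, with log2 fold changes from -0.70 for Rsad2 to 0.60 for Stat2, both of which DESeq2 called. The median fold change of the 38 was 0.15 (range -0.70 to 0.98), beside -0.02 for all genes tested. Of the 38, 30 were above 0, where 48.2% of all genes were. The median was 0.061 without library 3 of the aged anti-PD-1 group and 0.074 without library 1 of the aged controls.

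Ddx58 encodes RIG-I, a cytoplasmic helicase that recognises viral RNA and starts interferon induction (chr4:40203773-40239828, minus strand, mm10). It had 32.1, 34.1 and 37.1 CPM in the aged control libraries and 49.2, 48.4 and 52.2 CPM in the aged anti-PD-1 libraries. It had 42.1, 38.3 and 38.4 CPM in the young libraries and 35.0, 31.5 and 35.0 CPM in the combination libraries. The aged anti-PD-1 libraries lay above all 9 others, and the combination libraries lay within the range of the aged controls or, for library 2, just below it. The rise over aged control was 0.54 ± 0.09 (adjusted p 0.00604).

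Herc6 is the ligase that in mice attaches ISG15 to proteins (chr6:57581000-57664632, plus strand). Its levels were 5.51, 7.96 and 6.31 CPM in aged control libraries and 12.9, 10.8 and 15.3 CPM in aged anti-PD-1 libraries. In the young libraries it had 9.22, 7.35 and 6.47 CPM, and in the combination libraries 8.10, 6.40 and 6.00 CPM. Again the lowest aged anti-PD-1 library stood above every library of the other 3 groups, while those 3 groups overlapped. Herc6 rose by 0.98 ± 0.20 on the log2 scale (adjusted p 0.0101). Its span shares 45031 bases with the non-coding transcript Gm45193 on the same strand, and reads there may have been left out or split.

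Parp14 is a large ADP-ribosyltransferase with macrodomains that acts in interferon and interleukin signalling (chr16:35832874-35871544, minus strand). The aged control libraries had 37.0, 38.6 and 44.6 CPM and the aged anti-PD-1 libraries 72.1, 65.5 and 88.1 CPM. The young libraries had 59.9, 48.3 and 43.6 CPM and the combination libraries 62.2, 42.2 and 45.3 CPM. Library 1 of the young and of the combination group came near the lowest aged anti-PD-1 library, and none reached it. The rise over aged control was 0.91 ± 0.16 (adjusted p 0.00738).

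These 3 calls held when each of the 6 libraries was left out in turn (adjusted p 0.00863 to 0.0277 for Ddx58, 0.0176 to 0.0428 for Herc6 and 0.0127 to 0.0303 for Parp14), and under each other setting that was run. Other cell markers moved in the same comparison. Of 4 endothelial markers 3 rose, their sum being 798 to 1346 CPM in aged control and 1540 to 1734 CPM in aged anti-PD-1 libraries, with 1243 to 1568 CPM in young and 908 to 1206 CPM in combination libraries. Of 10 neutrophil markers 7 fell, from a sum of 1880 to 2875 CPM in aged control to 759 to 1105 CPM in aged anti-PD-1 libraries, beside 493 to 798 CPM in young and 1809 to 2359 CPM in combination libraries. Of 8 markers of plasmacytoid dendritic cells, known as strong producers of interferon, 2 fell and 1 rose. The surface receptor Siglech fell from a mean of 10.2 CPM in aged control to 3.41 CPM in aged anti-PD-1 libraries, beside 5.41 CPM in young and 6.48 CPM in combination libraries. Ccr9, a chemokine receptor, fell from 7.28 to 1.70 CPM, beside 4.33 CPM in young and 4.61 CPM in combination libraries, and the transcription factor Bcl11a rose by 0.83. The sum of the 8 was 160.2 to 197 CPM in aged control, 159 to 204 CPM in aged anti-PD-1, 154 to 169 CPM in young and 173 to 199 CPM in combination libraries, most of it from Tcf4, at a mean of 98.1 to 119 CPM in the 4 groups. No marker of these 3 lists was at 0 in all libraries, and the part of these cells in the result was not tested.

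**Figure D2:**
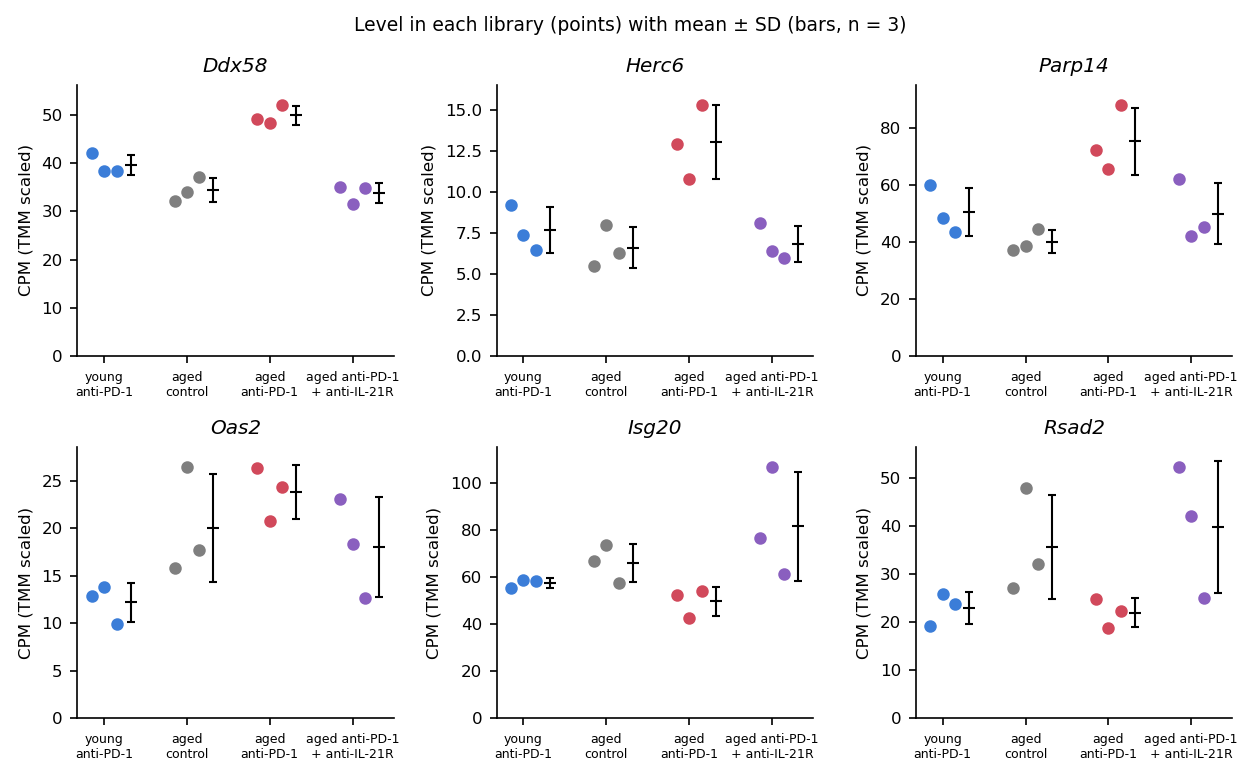
Each point is 1 library, with its level in TMM-scaled CPM on an axis from 0, and the bar beside each group is the mean ± SD of 3 libraries. For Ddx58, Herc6 and Parp14 the 3 aged anti-PD-1 libraries stand above all others. Isg20 and Rsad2 show the aged anti-PD-1 libraries below the combination libraries, and Oas2 shows the young libraries below every other library except library 3 of the combination group.

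The remaining roles showed no call in this comparison. Among the transcription factors, Stat2 is the subunit that gives ISGF3 its activation domain. Stat2 had 38.6, 33.3 and 37.7 CPM in aged control and 53.8, 49.3 and 62.9 CPM in aged anti-PD-1 libraries, 59.0, 40.9 and 43.7 CPM in young and 61.4, 39.3 and 33.9 CPM in combination libraries. The aged control and aged anti-PD-1 libraries did not overlap, and the difference of 0.60 ± 0.20 missed the threshold (adjusted p 0.0665), though DESeq2 gave it an adjusted p of 0.0284. Irf9, which brings the complex to DNA, had 40.9, 50.6 and 47.9 CPM in aged control, 50.7, 44.3 and 53.1 CPM in aged anti-PD-1, 44.3, 45.5 and 50.4 CPM in young and 64.3, 50.2 and 44.1 CPM in combination libraries. All 4 groups overlapped, with a difference of 0.09 (95% interval -0.20 to 0.38) between aged anti-PD-1 and aged control. Irf7, which drives the later wave of interferon alpha genes, had 46.2, 63.3 and 52.7 CPM in aged control, 52.0, 43.6 and 59.5 CPM in aged anti-PD-1, 41.6, 37.5 and 41.1 CPM in young and 62.0, 67.1 and 38.5 CPM in combination libraries. Its difference was -0.06 (95% interval -0.46 to 0.33), and the sign turned to 0.04 when libraries were scaled by their totals alone.

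For Isg15 and Ifit1 the aged control and aged anti-PD-1 libraries overlapped. Isg15, the ubiquitin-like modifier, had 23.7, 30.1 and 23.2 CPM in aged control and 24.7, 19.1 and 35.8 CPM in aged anti-PD-1 libraries, with 22.0, 22.1 and 25.4 CPM in young and 34.2, 37.2 and 17.9 CPM in combination libraries. The aged anti-PD-1 and combination groups each held both a high and a low library, and the difference of 0.05 had a 95% interval of -0.50 to 0.60. It became -0.23 without library 3 of the aged anti-PD-1 group. Ifit1, a tetratricopeptide protein that binds foreign capped RNA, had 36.3, 44.7 and 35.7 CPM in aged control and 35.5, 37.0 and 47.1 CPM in aged anti-PD-1 libraries, with 34.0, 37.6 and 42.8 CPM in young and 50.1, 40.6 and 28.6 CPM in combination libraries. Group means were 38.1 to 39.9 CPM, less apart than any group's own SD, and the interval of the difference was -0.35 to 0.42.

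Mx1 encodes an antiviral GTPase, of which C57BL/6J mice carry a defective allele whose transcript is still made. Mx1 had 6.18, 9.42 and 8.66 CPM in aged control, 7.14, 7.04 and 7.73 CPM in aged anti-PD-1, 6.34, 6.40 and 7.99 CPM in young and 16.4, 7.16 and 7.06 CPM in combination libraries. Library 1 of the combination group stood far above the other 11. The aged anti-PD-1 minus control difference was -0.15 (95% interval -0.75 to 0.46). Bst2 had 117, 101 and 97.8 CPM in aged control, 103, 124 and 147 CPM in aged anti-PD-1, 119, 103 and 105 CPM in young and 140.3, 113 and 78.7 CPM in combination libraries. Its groups overlapped throughout, and the same difference was 0.24 (95% interval -0.14 to 0.63).

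A few members had lower values under anti-PD-1 without passing the test. Rsad2 encodes viperin, which makes a chain-terminating nucleotide. Rsad2 had 27.2, 47.8 and 31.96 CPM in aged control and 24.8, 18.9 and 22.2 CPM in aged anti-PD-1 libraries, 19.2, 25.7 and 23.8 CPM in young and 52.2, 42.0 and 25.0 CPM in combination libraries. The aged anti-PD-1 libraries lay below those of both other aged groups, and the difference from aged control was -0.70 ± 0.25 (adjusted p 0.0915, and 0.0407 by DESeq2). Oasl1, a relative of the OAS enzymes, had a difference of -0.63 and Isg20 one of -0.41. Over the 38, the aged anti-PD-1 and control libraries did not overlap for 11 members, 8 higher and 3 lower, beside 32.5% of all genes (16.1% higher and 16.4% lower).

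The next comparison asks what blocking the IL-21 receptor added to anti-PD-1 in aged mice. The same aged anti-PD-1 libraries serve in both comparisons, so a high or low level in them enters the 2 with opposite sign. The values of each are given on their own, and opposite signs are not independent results. Ddx58, Herc6 and Parp14 fell, 1.48-fold, 1.90-fold and 1.51-fold, and Isg20 rose 1.64-fold. These 4 calls are 10.5% of the members, beside 9.02% of all genes called, a share near that of all genes. The 3 lower calls stand beside 4.35% of all genes called lower and the higher call beside 4.67%. The median of the members was -0.12 (range -0.93 to 0.86), beside -0.01 for all genes. Of the members 13 were above 0, where 48.9% of all genes were. The median moved to 0.03 without library 3 of the combination group, to -0.32 without its library 1 and to -0.058 without library 3 of the aged anti-PD-1 group.

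With the levels given above, the combination libraries lay below all aged anti-PD-1 libraries for each of the 3 lower genes. Ddx58 fell by 0.56 ± 0.09 on the log2 scale (adjusted p 0.00541), and the call held with each library left out in turn (adjusted p 0.00948 to 0.0333). Herc6 fell by 0.93 ± 0.20 (adjusted p 0.0144) and lost the call without library 2 of the combination group (adjusted p 0.0714). Parp14 fell by 0.59 ± 0.16 (adjusted p 0.0378). That call rested on all but 1 of the libraries: it was lost without library 1, 2 or 3 of the aged anti-PD-1 group (adjusted p 0.0814, 0.0528 and 0.124) and without library 2 or 3 of the combination group (0.157 and 0.103). It was also lost when the 6 libraries compared were fitted alone (adjusted p 0.0510). Cell markers moved in the same comparison: 3 of 4 endothelial markers were lower in the combination group, and 7 of 10 neutrophil and 4 of 5 erythroid markers were higher. The part of these cells in the values of any member was not tested.

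Isg20 is an exonuclease that degrades single-stranded RNA (chr7:78913424-78920396, plus strand). It had 52.3, 42.7 and 54.1 CPM in aged anti-PD-1 and 76.9, 107 and 61.4 CPM in combination libraries. The aged control libraries had 66.8, 73.6 and 57.4 CPM and the young libraries 55.3, 59.0 and 58.5 CPM. The aged anti-PD-1 libraries were the lowest of all 12, and library 2 of the combination group the highest. The rise was 0.72 ± 0.17 (adjusted p 0.0218). It lost the call without library 1 or 2 of the aged anti-PD-1 group (adjusted p 0.0580 and 0.0790) and without library 2 of the combination group (adjusted p 0.0996).

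Rsad2 and Oasl1 had the values nearest to Isg20 among the uncalled members. The difference for Rsad2 was 0.86 ± 0.25 (adjusted p 0.0527), which passed without library 3 of the combination group (adjusted p 0.0184) and by DESeq2 (adjusted p 0.00898). For Oasl1 it was 0.68 ± 0.21. Of the 10 neutrophil markers, 7 rose in this comparison. Of 5 erythroid markers 4 rose (median 1.39), their sum being 9962 to 13125 CPM in aged anti-PD-1 and 19017 to 46832 CPM in combination libraries, with 12353 to 15501 CPM in young and 12722 to 20686 CPM in aged control libraries. Haemoglobin reads took 3.98% of library 2 of the combination group, and 2.62% and 1.76% of its libraries 1 and 3. No marker of these lists was at 0 in all libraries, and the part of neutrophils and erythroid cells in the values of any member was not tested. The 5 sensors ranged from -0.56 to 0.07, with Ifih1 (MDA5, the sensor of long double-stranded RNA) at -0.38. The 4 IFIT genes ranged from -0.33 to 0.07 and the 6 OAS genes from -0.42 to 0.68. Stat2 differed by -0.30 (95% interval -0.72 to 0.12), and without library 1 of the combination group it passed the test (adjusted p 0.0431). Aged anti-PD-1 and combination libraries did not overlap for 7 members, 3 higher and 4 lower, beside 32.2% of all genes (15.7% higher and 16.5% lower).

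The combination group was then set against the aged controls, which shows anti-PD-1 and anti-IL-21R together. No member was called, beside 0% of all genes, and 0 members had an unadjusted p under 0.05, where 6.62% of all genes did. DESeq2 called 76 genes, none of them a member. The smallest adjusted p of a member was 0.802, for Parp14, with a difference of 0.32 (95% interval -0.04 to 0.67). Ddx58 differed by -0.03 (95% interval -0.22 to 0.17) and Herc6 by 0.06 (95% interval -0.38 to 0.49), the sign of both depending on single libraries. The interval of the difference held 0 for all 38 members and stayed within 1 log2 unit for 36 of them. The median was 0.06 (range -0.39 to 0.34), beside -0.01 for all genes. Its sign depended on single libraries: it was -0.073 without library 1 and 0.23 without library 3 of the combination group, and -0.013, 0.18 and 0.030 without libraries 1, 2 and 3 of the aged controls. The libraries overlapped for every member, where 9.71% of all genes had no overlap.

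**Figure D3:**
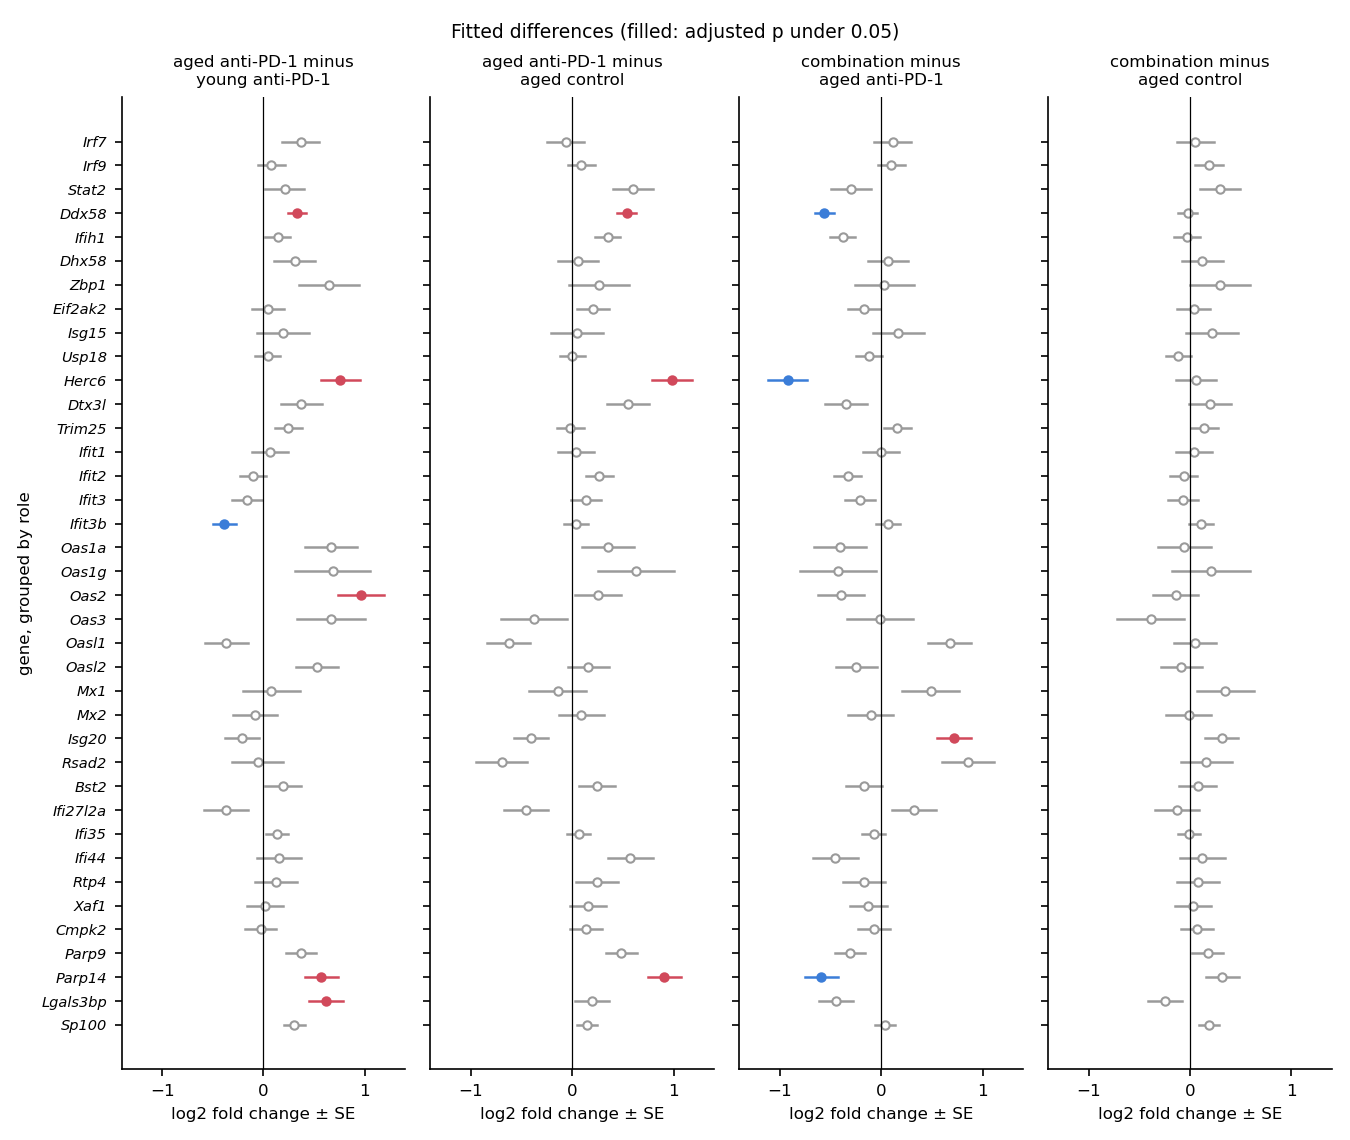
Each panel is 1 comparison and each row a gene, with its log2 fold change ± SE from the fit of 12 libraries. Filled points are called (red higher, blue lower) and open points are not. Ddx58, Herc6 and Parp14 are filled in the first 3 panels, on the right in the first pair and on the left in the third, and the last panel has no filled point. The first 3 panels share the aged anti-PD-1 libraries.

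The last comparison is of age under anti-PD-1, aged against young, and uses the same aged anti-PD-1 libraries once more. Oas2 rose 1.95-fold, Herc6 1.69-fold, Lgals3bp 1.54-fold, Parp14 1.49-fold and Ddx58 1.26-fold, and Ifit3b fell 1.31-fold. These 6 calls are 15.8% of the members, beside 15.3% of all genes called, a share near that of all genes and so not a result about the members. The 5 higher calls stand beside 8.09% of all genes called higher, and the 1 lower call beside 7.16%. The median was 0.17 (range -0.39 to 0.96), beside -0.01 for all genes, and it was 0.06 without library 3 of the aged anti-PD-1 group. Of the members 29 were above 0, where 49.3% of all genes were. Young and aged libraries did not overlap for 15 members, 13 higher and 2 lower, beside 39.6% of all genes (19.7% higher and 19.9% lower).

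Oas2 makes oligoadenylates from double-stranded RNA, which switch on the ribonuclease RNase L (chr5:120730333-120749853, minus strand). It had 12.9, 13.9 and 9.90 CPM in young and 26.3, 20.8 and 24.3 CPM in aged anti-PD-1 libraries. The aged control libraries had 15.8, 26.5 and 17.7 CPM and the combination libraries 23.1, 18.4 and 12.7 CPM. The young libraries lay below all aged libraries except library 3 of the combination group, which lay among them. The rise with age was 0.96 ± 0.23 (adjusted p 0.0135). It was not called without library 3 of the young group (adjusted p 0.0667).

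The other OAS genes of the oligoadenylate pathway lay in the same direction without passing the test. Oas1a had 13.6, 11.9 and 9.61 CPM in young and 18.8, 15.1 and 21.8 CPM in aged anti-PD-1 libraries, with 12.1, 17.8 and 13.9 CPM in aged control and 17.4, 16.8 and 7.78 CPM in combination libraries. Its young and aged anti-PD-1 libraries did not overlap, and the difference was 0.67 ± 0.26 (adjusted p 0.0989). Fitted on the 6 libraries of this comparison alone, it passed (adjusted p 0.0175). The differences of Oas1g, Oas3 and Oasl2 were 0.68, 0.67 and 0.53, and Oasl1 stood apart at -0.37. Oas1a and Oas1g are near-identical copies, so reads may be split between them.

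Lgals3bp, a secreted glycoprotein that binds galectins, had 102, 87.1 and 97.3 CPM in young and 152, 109 and 179 CPM in aged anti-PD-1 libraries. Aged control libraries had 112, 158 and 114 CPM and combination libraries 107, 116 and 99.97 CPM. All aged anti-PD-1 libraries were above the young ones, library 2 by the least, and the rise was 0.62 ± 0.17 (adjusted p 0.0263). Ifit3b, a tetratricopeptide protein of the IFIT cluster, had 22.4, 22.9 and 26.8 CPM in young, 16.9, 18.8 and 19.6 CPM in aged anti-PD-1, 18.6, 18.1 and 17.1 CPM in aged control and 21.4, 17.8 and 18.5 CPM in combination libraries. The young libraries stood above all others, and Ifit3b fell by 0.39 ± 0.12 on the log2 scale (adjusted p 0.0386). Ifit3 and Ifit3b are near-identical copies, and Ifit3 differed by -0.16. Herc6 rose by 0.76 ± 0.19 (adjusted p 0.0182), Ddx58 by 0.33 ± 0.09 (adjusted p 0.0257) and Parp14 by 0.57 ± 0.16 (adjusted p 0.0306), at the levels given above.

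The calls with age depended on single libraries. No member was called without library 3 of the young group, and Oas2 alone was called without library 2 of the young group or library 3 of the aged anti-PD-1 group. Without library 1 of the aged anti-PD-1 group Herc6 and Oas2 were called, and without its library 2 Herc6, Lgals3bp, Oas2 and Parp14 were. Calls over all genes fell as well, from 15.3% in the fit of 12 libraries. They were 6.14% without library 3 and 7.43% without library 2 of the young group. Without libraries 1, 2 and 3 of the aged anti-PD-1 group they were 11.8%, 10.1% and 6.63%. Over these settings and the one without library 1 of the young group, the adjusted p ran from 0.0169 to 0.0894 for Herc6, 0.00766 to 0.125 for Lgals3bp, 0.0202 to 0.135 for Parp14, 0.0363 to 0.107 for Ddx58 and 0.0488 to 0.216 for Ifit3b. Markers of several cell types rose with age as well: 6 of 6 of platelets (sum 171 to 340 CPM in young and 901 to 979 CPM in aged anti-PD-1 libraries), 5 of 6 of plasma cells (289 to 332 and 1135 to 2157 CPM), 5 of 7 of B cells (186 to 225 and 378 to 408 CPM), 5 of 9 of T cells (90.7 to 107 and 118 to 218 CPM) and 4 of 11 of monocytes (2520 to 2721 and 3043 to 4029 CPM). Of 9 markers of lung epithelium 6 fell, from 44213 to 56995 CPM to 28963 to 33621 CPM. No marker of these lists was at 0 in all libraries, and the part of these cells in the calls was not tested.

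In each of the 3 aged groups most members had their highest or lowest level in the same library. The median of the 38, as log2 CPM minus each gene's mean over the 12 libraries, was -0.06, -0.11 and -0.03 in the young libraries and -0.22, 0.15 and -0.06 in the aged controls. It was 0.09, -0.01 and 0.28 in the aged anti-PD-1 libraries and 0.29, 0.04 and -0.34 in the combination libraries. The spread over the 3 libraries was smallest in the young group (SD 0.0398) and largest in the combination group (SD 0.317), where it went beyond the differences between the group means of -0.07, -0.05, 0.12 and -0.0033. The median of all genes was between -0.0094 and 0.0246 in every library.

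In library 3 of the aged anti-PD-1 group 32 of the 38 members (84.2%) had their highest level of that group, where 33.9% of all genes did. Library 1 of the combination group was the highest of its group for 29 members (76.3%, with 30.4% of all genes), and its library 3 the lowest for 31 (81.6%, with 31.3% of all genes). In the aged controls library 2 was the highest for 25 members (65.8%, with 32.6% of all genes) and library 1 the lowest for 26 (68.4%, with 39.9% of all genes). Library 2 of the aged anti-PD-1 group was the lowest for 27 (71.1%, with 33.0% of all genes). The young libraries showed no such pattern: library 1 was the highest for 18 members and the lowest for 17, library 2 for 7 and 12, and library 3 for 13 and 9. Each young library was the highest or the lowest for 30.1% to 35.4% of all genes. These shares describe the libraries and carry no test, since the members are not independent of each other.

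**Figure D4:**
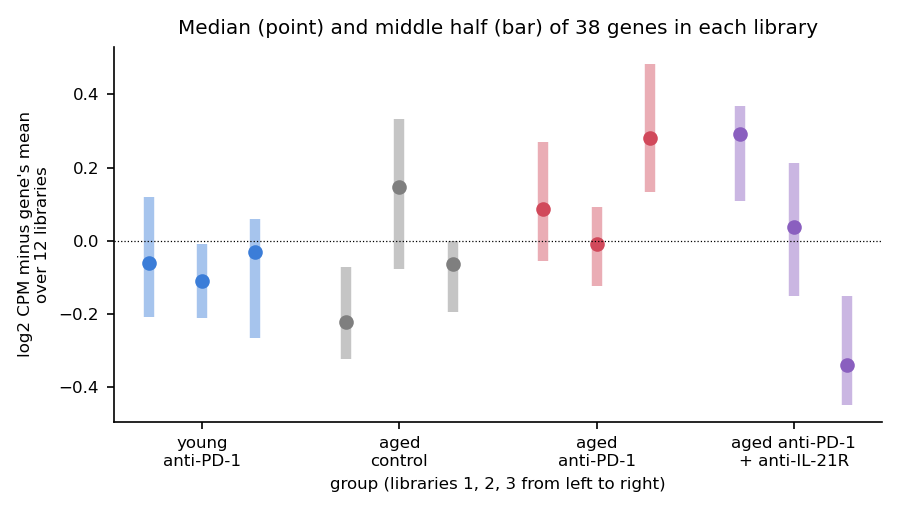
Points are the median over the 38 genes of log2 CPM minus each gene's mean over the 12 libraries, and bars span the interquartile range. The 3 young libraries lie within -0.11 to -0.03. The 3 combination libraries spread from -0.34 to 0.29 and so span the medians of the other 9.

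Exon length was set beside the differences. Parp14 and Herc6, with 9306 and 9292 bases of exon, are the longest and next longest of the 38, and Ddx58 has 7050. The other called members, Oas2, Lgals3bp, Ifit3b and Isg20, have 4451 to 1860 bases. Ifih1, Sp100 and Oas3, all longer than Ddx58, were not called in any comparison by the fit of 12 libraries. Other settings called each of them. Sp100 with age, at adjusted p 0.0527 in that fit, was called by DESeq2. Oas3 with age was called when the compared libraries were fitted alone, and Ifih1 under anti-PD-1 with library totals alone. Across the 38 genes the Spearman correlation of exon length with the difference of aged anti-PD-1 from control was 0.415, and across 18510 genes with a length it was 0.274. For combination against aged anti-PD-1 it was -0.393 over members and -0.288 over all genes, and for aged against young 0.402 and 0.114. For combination against control it was 0.0809 and -0.0003. These describe genes that share libraries, have no p, and genes are not independent replicates. A trend on length and GC content, fitted over all genes, was removed in a setting chosen after seeing the data. Ddx58, Herc6 and Parp14 were then still called against aged control, while Parp14 was no longer called against the combination group (adjusted p 0.0824). The part of exon length in the calls of the members was not tested.

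**Figure D5:**
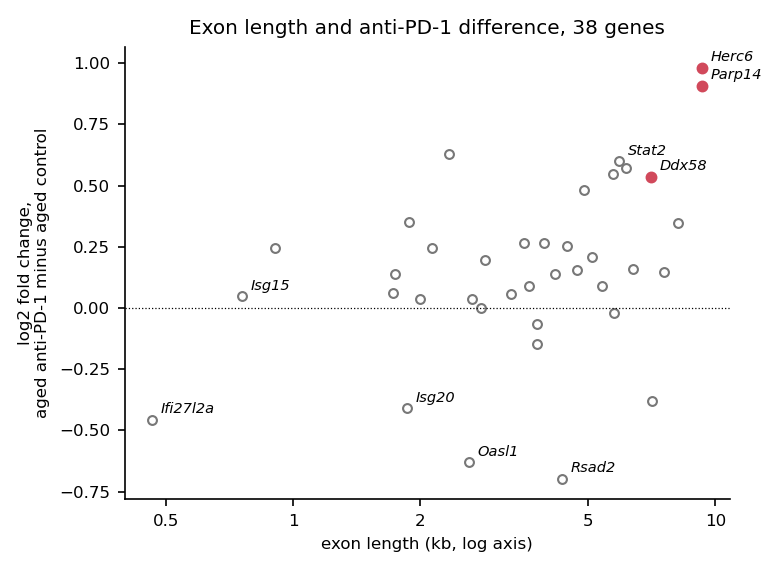
Each point is 1 of the 38 genes, with its exon length in kb on a log axis and its log2 fold change of aged anti-PD-1 over aged control. Filled points are called. The 3 filled points, Ddx58, Herc6 and Parp14, lie at 7050 bases or more, and Rsad2 and Oasl1, the lowest points, at intermediate length.

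Other genes of the pathway were taken from lists, and their counts can be set beside those of the members and of all genes. Of all genes tested, 5.34% were called higher and 5.58% lower under anti-PD-1, 4.67% and 4.35% with anti-IL-21R, and 8.09% and 7.16% with age. The median of all genes was -0.02, -0.01 and -0.01 in the same order, and -0.01 between combination and control. Of 13 genes of nucleic acid sensing tested beside the members, 3 rose under anti-PD-1, 1 fell with anti-IL-21R and 7 rose with age. Tlr3, the endosomal sensor of double-stranded RNA, had 14.6, 9.48 and 12.5 CPM in aged control and 20.3, 24.0 and 21.2 CPM in aged anti-PD-1 libraries, with 15.4, 14.2 and 12.8 CPM in young and 12.3, 10.4 and 9.89 CPM in combination libraries. The aged anti-PD-1 libraries were above all 9 others. Genes of these lists were named where called in at least 2 comparisons, and every comparison with a call shares those libraries. Their place in that group is thus partly set by the choice and adds no separate support. It rose by 0.84 ± 0.16 over control (adjusted p 0.00745), fell by 1.01 ± 0.16 with anti-IL-21R (adjusted p 0.00507) and was 0.62 ± 0.15 higher than in young libraries (adjusted p 0.0161). Mavs, the adaptor of RIG-I, differed from control by 0.60 and from young by 0.49, and Tmem173 (STING), the adaptor of DNA sensing, by 0.59 and 0.81, all 4 called.

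A list of 48 other interferon-stimulated genes had 13 called higher and 2 lower under anti-PD-1, with a median of 0.33. With anti-IL-21R 1 was higher and 5 lower (median -0.23), with age 20 were higher and none lower, where 1 member was lower (median 0.56), and none was called between combination and control. Helz2, Trim34a, Ifi213 and Mov10 were called in the first 3 comparisons named, with 0.71, 0.90, 0.91 and 0.43 over aged control, -0.57, -0.77, -0.78 and -0.47 with anti-IL-21R, and 0.73, 0.72, 0.57 and 0.67 over young. They were named by the rule given for Tlr3, so the shared libraries enter all of these values. Ifi203, Ifi206, Ifi209, Nlrc5, Pml, Trim30d and Uba7 rose over aged control, by 0.37 for Uba7, which activates ISG15, to 0.92 for Ifi206, and also with age. Ifitm1, a membrane protein that hinders viral fusion, went the other way. It had 104, 139 and 97.9 CPM in aged control, 53.4, 69.0 and 60.0 CPM in aged anti-PD-1, 56.3, 60.6 and 60.2 CPM in young and 83.4, 119 and 93.9 CPM in combination libraries. The aged anti-PD-1 libraries did not overlap with either of the other aged groups, and Ifitm1 fell by 0.90 ± 0.15 over control (adjusted p 0.00585) and rose by 0.70 ± 0.15 with anti-IL-21R (adjusted p 0.0160).

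Among 27 GTPases and chemokines known as interferon gamma targets, 7 rose under anti-PD-1 (median 0.91), 3 rose with age (median 0.29) and none was called in the remaining comparisons. The median of the list was -0.28 with anti-IL-21R and 0.59 between combination and control. Cxcl9, a chemokine for T cells, had 4.41, 5.75 and 3.10 CPM in aged control, 20.1, 14.0 and 120.5 CPM in aged anti-PD-1, 3.74, 1.601 and 2.25 CPM in young and 5.96, 11.5 and 15.6 CPM in combination libraries. It rose by 3.54 ± 0.82 over control (adjusted p 0.0273), and library 3 of the aged anti-PD-1 group stood far above the other 2. Ciita, the switch of MHC class II genes, rose by 1.24 ± 0.23 and Ubd, a ubiquitin-like modifier, by 2.22 ± 0.40. Cxcl10, a target of both kinds of interferon, had 22.3, 21.1 and 29.5 CPM in aged control and 7.77, 12.1 and 27.9 CPM in aged anti-PD-1 libraries, with a difference of -0.61 ± 0.34 that was not called. Ifng itself had 1.603 to 6.88 CPM over the 12 libraries and was not called in any comparison.

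The placement of the genes bears on how their reads can be read. The spans of 13 of the 38 overlap another gene of the table, 12 on the opposite strand and 4 on the same strand. Parp9 and Dtx3l, partners in ADP-ribosylation and ubiquitination, overlap head to head by 682 bases, and the strand setting of the counting is not given in the sources used here. Their differences under anti-PD-1 were 0.48 and 0.55, neither called. Parp9 had an adjusted p of 0.0544 in the edgeR fit and was called by DESeq2.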

How the data were processed

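Raw read counts per gene, 1 column per library, were deposited by the authors without normalization, per the file headers. The submitters' processing notes name the build mm10 and, as tools, featureCounts 1.6.3, HISAT2, bcl2fastq 1.8.4 and Trimmomatic. Options, annotation release and strand setting are not given in the sources used here. Libraries were poly(A) selected with a directional kit, per the labels' protocols, and were grouped by the labels' age and treatment.

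Genes were kept by filterByExpr (minimum count 10, minimum total 15), which left 18556 of 49585. Scaling was by TMM. edgeR 4.0.16 (limma 3.58.1, R 4.3.3) fitted a robust quasi-likelihood model with 4 group means to 12 libraries (8 residual degrees of freedom), with two-sided F tests adjusted by Benjamini-Hochberg over all genes tested. The fit was also run on simulated data with 200 genes changed. The outcome is not given here, so that run does not vouch for the p-values. Depth was 16021877 to 22058620 reads, and intervals are 95% intervals of the fit.

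The members, lists and tests were chosen with earlier results of these data known. A member is named with every library's value where it was called in at least 1 comparison, or is Irf7, Irf9, Stat2, Isg15, Ifit1, Mx1, Oas1a, Rsad2 or Bst2. Outside the members, genes of the pathway lists called in at least 2 comparisons, the receptor chains, Ifnb1, Cxcl10 and Ifng are named. Siglech, Tcf4 and the endpoints of ranges are also named, chosen after their values were seen. Cell type markers are mostly given as counts and sums, and not all of those called in at least 2 comparisons are named. A result for 1 other listed gene is not reported here.

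Alternatives were DESeq2 1.42.0, RLE factors, library totals, TMM without immunoglobulin, haemoglobin and mitochondrial genes, other filters, a replicate block, fits of the compared libraries alone, leaving out each library, and, added after seeing the data, removal of a length and GC trend. Replicate numbers did not pair libraries: same-numbered libraries had a median residual correlation of -0.0120 (-0.169 to 0.171 over 18 pairs), and 3 of 12 correlated best with their own number. Deviations by library are log2 CPM with a prior count of 2. Exon lengths, found for 99.8% of the genes tested, were those of GENCODE M21, and promoters those of RefSeq. Figures used Python 3.11.15 and matplotlib 3.10.9.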

Additional observations from a re-analysis of the deposited data

How the results depend on the processing

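The calls of Ddx58, Parp14 and Herc6 against aged control held in every setting run. No member was called between combination and aged control in any setting. Other counts of called members depended on the setting. With library totals alone, higher members under anti-PD-1 numbered 6 in place of 3, lower members with anti-IL-21R 7 in place of 3, and lower members with age 0 in place of 1. That scaling moved the median of all genes from -0.0086 to -0.21 with anti-IL-21R and from -0.016 to 0.091 under anti-PD-1. With anti-IL-21R 361 of 3038 calls were higher, beside 866 of 1674 with TMM. Under anti-PD-1 1400 of 1959 calls were higher, beside 990 of 2025. With age that scaling called 13.2% of all genes, beside 15.3% with TMM. It also turned Irf7 under anti-PD-1 to 0.041, Ifit3b with anti-IL-21R to -0.13 and Herc6 between combination and control to -0.029. DESeq2 called 5 members higher and 2 lower under anti-PD-1, where it called 2999 genes in all (16.2%), 1459 of them higher. With anti-IL-21R it called 3 members higher and 2595 genes in all (14%), 1388 of them higher. Without a filter, 1 member was lower under anti-PD-1, 2 were higher with anti-IL-21R and 0 lower with age. All genes called in that setting were 5.87%, 5.08% and 7.87% in the same order. A mean CPM of at least 1 gave 2 higher with anti-IL-21R, beside 10.4% of all genes called. Fits of the compared libraries alone gave 10 higher with age, beside 20.8% of all genes called, with 2076 of 3742 calls higher. With anti-IL-21R they gave 2 higher and 2 lower, where Parp14 was lost, beside 8.09% of all genes called. Under anti-PD-1 they called 881 genes (4.91%). TMM without immunoglobulin, haemoglobin and mitochondrial genes, and removal of the length and GC trend, each left 0 lower with age. They called 15.1% and 15.6% of all genes there. The trend's removal turned Ifit3b with anti-IL-21R to -0.00019. The cause of these shifts was not tested.

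With the replicate block, 0 members were lower with age and 2 higher with anti-IL-21R, and Stat2 passed under anti-PD-1 (0.61, adjusted p 0.0373). The block changed no other count of members past 1.5 times. With it, 13.4% of all genes were called with age, 7.84% with anti-IL-21R and 9.17% under anti-PD-1.

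Leaving out 1 library at a time gave 0 to 6 higher and 0 to 1 lower members with age, 0 to 1 lower under anti-PD-1, and 0 to 3 higher and 1 to 5 lower with anti-IL-21R. Calls over all genes ran in the same fits from 6.14% to 11.8% with age and from 3.21% to 10.5% under anti-PD-1. With anti-IL-21R they ran from 1.37% to 7.6%. The median with age ran from 0.057 to 0.25. Small differences changed sign: Isg15 with age (-0.084 to 0.38), and under anti-PD-1 Isg15 (-0.23 to 0.24), Ifit1 (-0.10 to 0.15), Irf7 (-0.18 to 0.065) and Ifit3b (-0.0087 to 0.10). So did Ifit3b with anti-IL-21R (-0.018 to 0.11) and, between combination and control, Herc6 (-0.087 to 0.21), Oas2 (-0.37 to 0.11) and Ddx58 (-0.074 to 0.032). With 3 libraries a group, the median SE of a member was 0.181 on the log2 scale, which limits what could be called.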
